A study of Mus musculus with 2 samples.

Results

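The genes described here are 8 transcription factors of the developing forebrain and cerebral cortex, Tbr1, Neurod2, Neurod6, Fezf2, Lhx2, Emx1, Emx2 and Bcl11b, profiled here in fetal mouse ear at E18.5. They are 8 of 19938 genes that the array's annotation pairs with a probe set of their own, and each has 1 such probe set. The 8 were selected on their difference between the genotypes in these same data, together with related forebrain factors, so their values below are a description and no test was made on them. Of the arrays, 1 held RNA of BALB/c ear null for both Myf5 and Myod1 (labelled Myf5-/-:MyoD-/-, and called the double knockout here) and 1 held RNA of wild-type BALB/c ear of the same age. Myf5 and Myod1 encode the factors that commit cells to skeletal muscle. The extent of the dissection, any neighbouring tissue it carried along and the number of fetuses behind each RNA are not stated in the labels. With 1 array per genotype there is no spread between animals to set a difference against, and no p-value is given.

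In the embryo the cerebral cortex arises from the dorsal wall of the telencephalon. Lhx2, a LIM-homeodomain protein, and the homeodomain proteins Emx1 and Emx2 act in its progenitors and help set its territory. The bHLH proteins Neurod2 and Neurod6 come on as excitatory neurons differentiate, and the T-box protein Tbr1 marks early-born neurons of layer 6 and the preplate. Fezf2 and its downstream partner Bcl11b (also called Ctip2), both zinc-finger proteins, specify the neurons of layer 5 that project below the cortex. Outside the brain Lhx2 is made in hair follicle progenitors, Bcl11b in T cells and in skin, and Emx2 in the urogenital tract and the inner ear.

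Shared regulation of the members was not tested. The stretches around the transcription starts of the 4 neuronal members that were at least 2-fold higher in the double knockout are shown. Each runs 5′ to 3′ from 250 bases before the start to 50 bases after it and comes from RefSeq. Capitals mark TAATTA, the core that many homeodomain proteins bind, and CAGATG (or CATCTG on the other strand), the E-box form that Neurod proteins favour.

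Tbr1 promoter (GRCm38.p6, chr2:61804203-61804502, plus strand): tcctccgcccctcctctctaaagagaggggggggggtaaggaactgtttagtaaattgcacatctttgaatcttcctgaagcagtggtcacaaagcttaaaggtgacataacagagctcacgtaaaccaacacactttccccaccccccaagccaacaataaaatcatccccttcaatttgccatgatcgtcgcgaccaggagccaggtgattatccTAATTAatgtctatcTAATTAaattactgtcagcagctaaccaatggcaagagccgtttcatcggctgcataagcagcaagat
Neurod2 promoter (GRCm38.p6, chr11:98329596-98329895, minus strand): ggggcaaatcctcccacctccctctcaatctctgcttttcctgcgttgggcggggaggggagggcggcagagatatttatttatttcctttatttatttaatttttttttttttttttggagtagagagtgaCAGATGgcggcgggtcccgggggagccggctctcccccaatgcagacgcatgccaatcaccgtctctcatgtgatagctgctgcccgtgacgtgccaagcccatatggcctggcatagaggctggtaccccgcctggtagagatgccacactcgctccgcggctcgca
Neurod6 promoter (GRCm38.p6, chr6:55681214-55681513, minus strand): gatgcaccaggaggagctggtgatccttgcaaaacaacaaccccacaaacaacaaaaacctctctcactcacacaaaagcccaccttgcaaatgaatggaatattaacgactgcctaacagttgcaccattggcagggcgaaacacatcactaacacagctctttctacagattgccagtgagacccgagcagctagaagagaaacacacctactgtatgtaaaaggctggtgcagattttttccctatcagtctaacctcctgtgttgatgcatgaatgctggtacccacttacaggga
Fezf2 promoter (GRCm38.p6, chr14:12345816-12346115, minus strand): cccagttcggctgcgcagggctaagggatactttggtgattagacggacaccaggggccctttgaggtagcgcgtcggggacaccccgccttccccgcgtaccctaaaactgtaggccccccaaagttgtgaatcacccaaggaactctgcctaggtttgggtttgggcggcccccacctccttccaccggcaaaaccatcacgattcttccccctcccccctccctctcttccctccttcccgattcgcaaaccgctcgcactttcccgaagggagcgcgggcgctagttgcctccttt

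The Tbr1 window holds TAATTA at 2 places, starting 33 and 18 bases before the transcription start. Among 32851 windows of the same length in the table, 5.29% hold TAATTA at least once and 0.49% at least 2 times. The Neurod2 window holds CAGATG at 1 place, 118 bases before the start, and 17.2% of all windows hold it at least once on either strand. The Neurod6 and Fezf2 windows hold neither motif, which says only that these letters are not in those 300 bases. All 8 genes matched the table, with 9 windows, since Lhx2 has 2 starts there. TAATTA was in 2 of the 9 (Tbr1 and Emx2) and CAGATG or CATCTG in 2 (Neurod2 and the downstream start of Lhx2). The T-box motif AGGTGTGA was in 0 of the 9 on either strand, against 1.28% of all windows, and TATAAA or its complement was in 1, that of Bcl11b, against 13.6%. The loose E-box CANNTG, which CAGATG and CATCTG are forms of, was in 5 of the 9, against 72.3% of all windows. Base composition was not shared. GC content ran from 43% (Bcl11b) to 74.7% (the upstream start of Lhx2), with a median of 52.7% over all windows, and the number of CpG pairs from 3 (Neurod6) to 37 (Emx1), with a median of 7.

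The members' signals were higher in the double knockout ear for all 8, and by 2-fold or more for 5. Signals are the deposited log2 values. Values under the array's median over all probe sets, 5.70 in the double knockout and 5.65 in the wild type, were raised to that median, called the floor, before a difference was taken. Where a gene lay at the floor in the wild type its fold is a lower bound. Over the 12458 genes that exceeded the floor in 1 or both genotypes, 0.482% were higher by 2-fold or more, 1.71% were lower by as much and 48.0% had a difference above 0. Those shares come from the contrast by which the members were picked, so nothing about the members is read from them. All 8 members were above the floor in the double knockout, and 5 were in the wild type. Their median difference was 1.22 (2.33-fold), beside -0.01 over all genes. In whole-tissue RNA more cells of a type and more RNA per cell cannot be told apart.

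**Figure D1:**
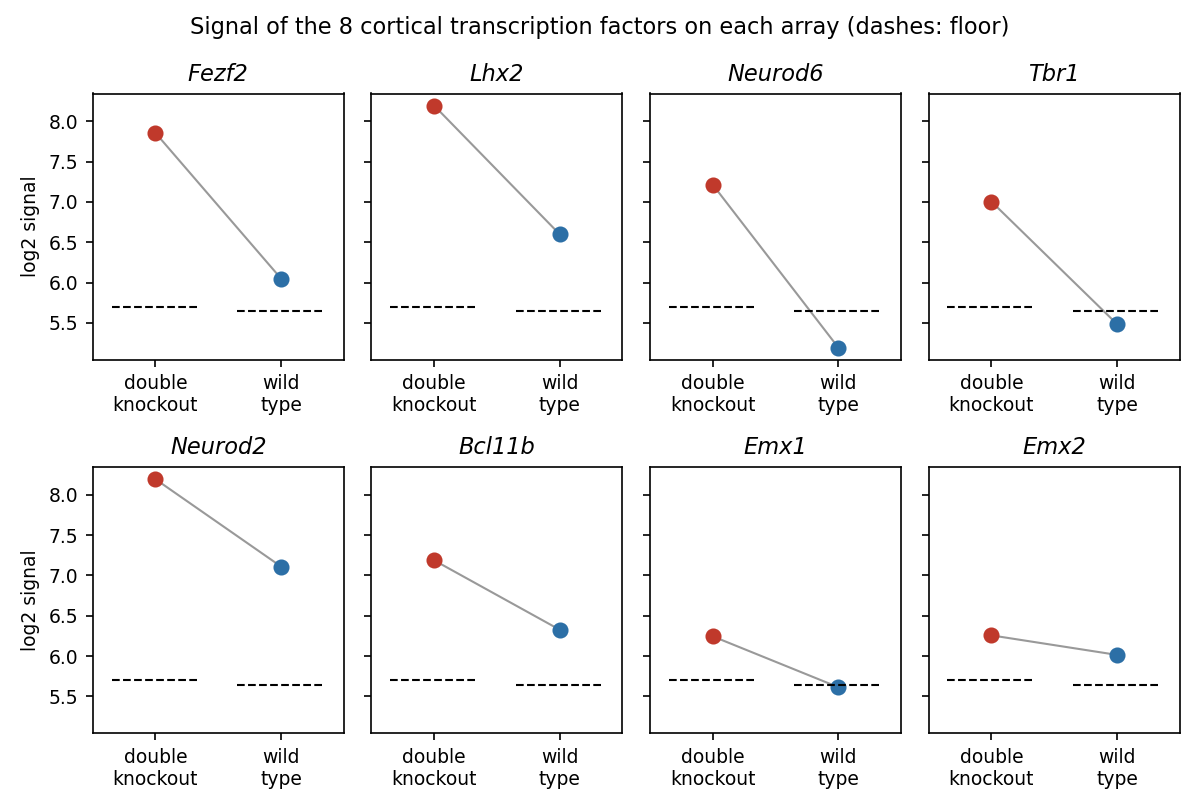
Log2 signal of each factor in the double knockout ear (red, left) and the wild-type ear (blue, right), 1 array each, in order of the difference, with the floor of each array as a dashed line. All 8 red points lie above the blue ones, and Tbr1, Neurod6 and Emx1 are under the floor in the wild type; probe sets differ in how strongly they bind, so heights are not compared between genes.

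The factors of the subcortically projecting neurons differed unequally. Fezf2 (probe set 10417620, chromosome 14) read 7.85 in the double knockout ear and 6.05 in the wild-type ear, above the floor on each. That is a log2 difference of 1.80, or 3.49-fold, the 10th highest of the 12458 genes. Bcl11b (probe set 10402554, chromosome 12), which acts downstream of Fezf2 in these neurons, read 7.19 in the double knockout and 6.33 in the wild type, 1.81-fold higher. Bcl11b was the member just short of 2-fold, with a log2 difference of 0.86, and Neurod2 the one just past it, with 1.08.

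Tbr1, the factor of early-born and layer 6 neurons (probe set 10472313, chromosome 2), read 7.00 in the double knockout and 5.49 in the wild type, where it lay under the floor. It was at least 2.56-fold higher. Of the bHLH pair, Neurod6 (probe set 10544936, chromosome 6) read 7.21 in the double knockout and 5.20, under the floor, in the wild type, at least 2.96-fold higher. Neurod2 (probe set 10390618, chromosome 11) was above the floor on each array, with 8.19 in the double knockout and 7.11 in the wild type, 2.12-fold higher. The bounds understate the deposited values, whose differences without a floor were 1.52 for Tbr1 and 2.02 for Neurod6.

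The progenitor factors spread most widely. Lhx2 (probe set 10471833, chromosome 2) read 8.19 in the double knockout and 6.60 in the wild type, 3.02-fold higher. Emx1 (probe set 10539584, chromosome 6), which in the brain is nearly confined to the dorsal telencephalon, read 6.25 in the double knockout and 5.62, just under the floor, in the wild type, at least 1.52-fold higher. Emx2 (probe set 10464391, chromosome 19), which other tissues also make, read 6.26 in the double knockout and 6.02 in the wild type, a difference of 0.24 or 1.18-fold. Emx2 had the smallest difference of the 8 and ranked 1560th from the top.

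**Figure D2:**
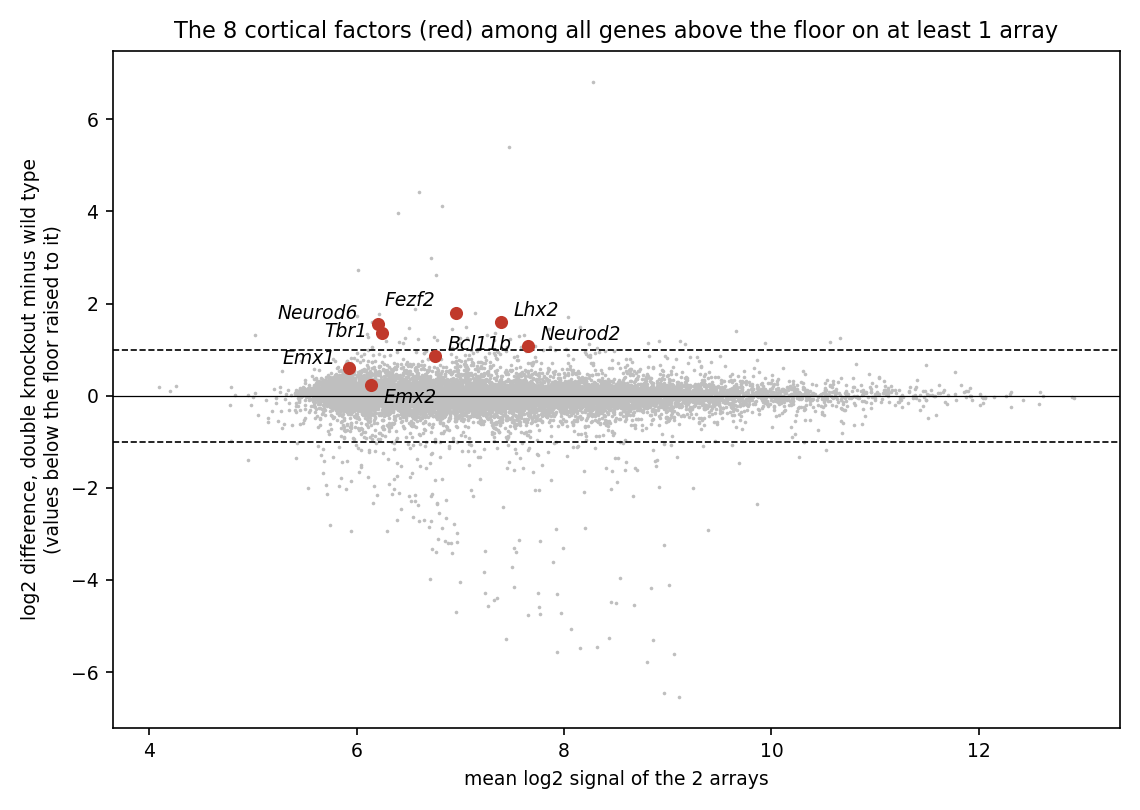
Log2 difference (double knockout minus wild type, low values raised to the floor) against the mean deposited log2 signal for 12458 genes in grey, with the 8 cortical factors in red and dashed lines at 2-fold. Fezf2, Lhx2, Neurod6, Tbr1 and Neurod2 lie above the upper line, Bcl11b and Emx1 under it, and Emx2 within the body of the genes; the grey points far below 0 include the muscle genes.

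For scale, over the 11626 genes that exceeded the floor in both genotypes the differences had an SD of 0.344 and a 99th percentile of 0.752. Among probe sets above the floor on both arrays, 619 genes had several. Those of 1 gene scattered around their mean with an SD of 0.168, which holds noise between probes but no variation from animal to animal. That SD does not cover probe sets under the floor, as those of Tbr1, Neurod6 and Emx1 were in the wild type. Each member has a single probe set, so none has a second measurement of its own. The calls depended on how low signals were treated. With the floor at the 75th percentile only Neurod2, Fezf2 and Lhx2 entered, at 0.82, 0.49 and 0.82, and 0 of them reached 2-fold. With each array's median signal added as a pseudocount in place of the floor, 3 members did (Fezf2, Lhx2 and Neurod6). The direction was upward for every member under every setting in which it entered, but the members were picked on this difference. A higher floor or a pseudocount shrinks differences of low signals, and the other scalings moved them little, so that shared direction says little.

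**Figure D3:**
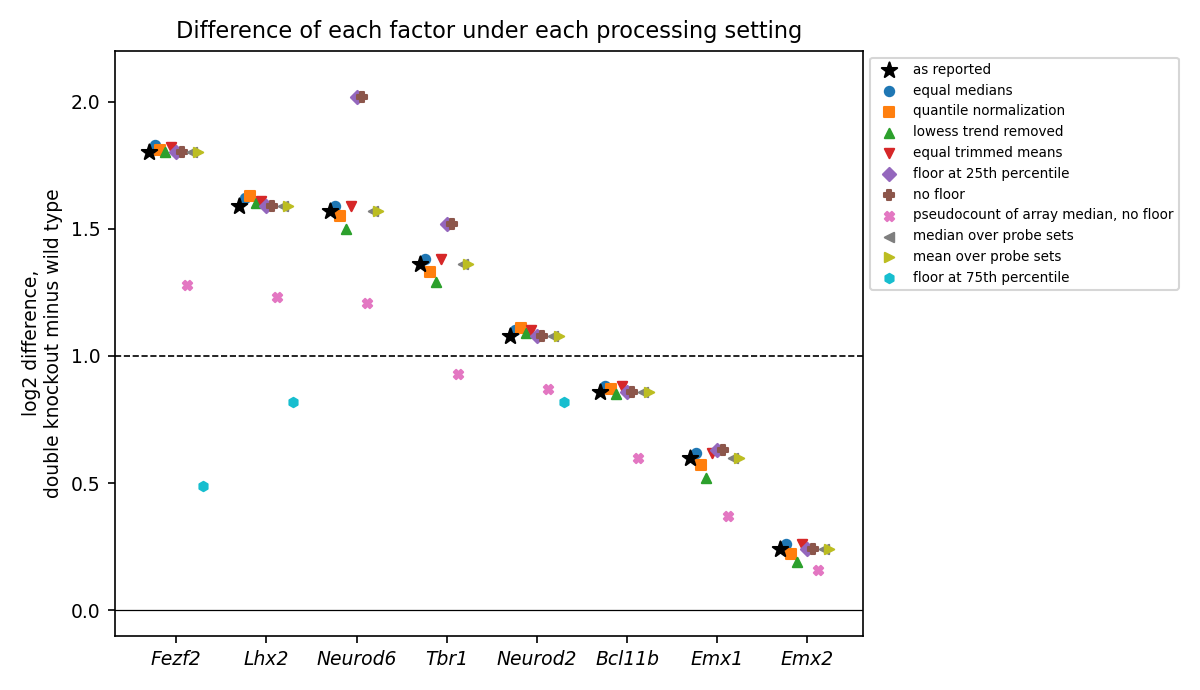
Log2 difference (double knockout minus wild type) of each factor under the reported setting (black star) and each of the 10 other settings of scaling, floor and probe set choice in which it entered, with a dashed line at 2-fold. The 4 other scalings stay close to the star. The floor at the 75th percentile brings down Fezf2, Lhx2 and Neurod2, the only factors that enter there. The pseudocount brings every factor down, and Emx2 stays between 0.16 and 0.26.

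The genotype check lies in the muscle genes. Acta1, the skeletal muscle actin, read 5.73 in the double knockout and 12.19 in the wild type, 88.3-fold lower. Of 12 muscle and targeted genes, 10 were at least 2-fold lower. The log2 differences of the muscle actin Actc1, the troponin Tnnt3, the creatine kinase Ckm and the filament protein Des were -6.54, -5.79, -5.30 and -4.48. The myosins Myh8 and Myh3 and the calcium pump Atp2a1 were under the floor in the double knockout, so their differences of -5.56, -4.69 and -5.48 are bounds. Myod1 itself read 6.38 in the double knockout and 6.95 in the wild type, and Myf5 read 5.25 in the double knockout and 5.94 in the wild type. The labels do not place their probes inside or outside the deleted parts, so these 2 check little. The label of the tissue could be set against inner ear genes. Tecta, of the tectorial membrane, read 8.76 in the double knockout and 8.74 in the wild type. Of 14 hair cell genes, 9 were above the floor on each array, with a median difference of 0.03. That count checks little, since 11626 of all 19938 genes were above the floor in both genotypes. Pou4f3, Gfi1, Tmc1, Ocm and Lhx3 were under it on each array. The hair cell myosin Myo6 differed by 0.03, and Atoh1, which specifies hair cells, by 0.00.

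Close relatives of the members did not all share their direction or size. The relatives listed were 26 genes of the same families, of which 24 had a probe set and 12 were above the floor. Of the 12, 2 were at least 2-fold higher, 0 were lower by that much, and the median was 0.38. Neurod1, the bHLH relative that is also made in ear sensory neurons, read 6.99 in the double knockout and 5.82 in the wild type, 2.24-fold higher. Bcl11a, the paralogue of Bcl11b, read 8.80 in the double knockout and 7.68 in the wild type, 2.17-fold higher. Neurod4, Neurog1, Neurog3, Fezf1, Tbx21, Bhlhe23, Lhx1, Lhx3, Lhx5, Lhx8, Lhx9 and Vax2 were under the floor on each array. Eomes, the T-box relative that comes on before Tbr1 in cortical intermediate progenitors, read 5.93 in the double knockout and 5.36, under the floor, in the wild type. Among LIM-homeodomain relatives of Lhx2, Lmx1b and Lhx6 differed by 0.51 and 0.48, Lhx4 by at least 0.32, and Isl1 and Isl2 by -0.44 and -0.27. The bHLH factors Atoh7 and Atoh1 differed by 0.74 and 0.00, and Vax1, a homeodomain relative of the Emx proteins, by at least 0.43.

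Of 60 measured genes in the progenitor, postmitotic and effector lists of the cortex, 50 had a difference above 0 and 10 below it, 9 were at least 2-fold higher and 1 was at least 2-fold lower. Over all 12458 measured genes, 48.0% had a difference above 0, 0.482% were at least 2-fold higher and 1.71% at least 2-fold lower. The lists used here were written with earlier results of these arrays known, so their counts are a description. Of 25 further factors of postmitotic cortical neurons with a probe set, 23 were above the floor, 20 of them had a difference above 0, 4 were at least 2-fold higher and 1 was at least 2-fold lower. Their median was 0.28. The 4 were Nr4a2 (8.90 in the double knockout, 7.41 in the wild type, 2.81-fold), an orphan nuclear receptor of claustrum and deep cortical layers, Neurod1, Bcl11a and Zbtb18. The last, a zinc-finger repressor that cortical neurons need to differentiate, read 8.39 in the double knockout and 7.33 in the wild type, 2.07-fold higher. The lower gene was Mef2c, 8.45 in the double knockout and 9.49 in the wild type, which muscle also makes. Nr4a3, a relative of Nr4a2 that is in none of the lists, read 7.80 in the double knockout and 6.31 in the wild type, 2.80-fold higher. The members of highest signal, Nfib, Nfia and Id2, differed by 0.08, 0.17 and 0.32. Cux1 and Tle4, factors of upper-layer and layer 6 neurons, differed by -0.15 and -0.04.

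Progenitor factors of the cortex had a lower median than the postmitotic and effector lists, an order that depended on the floor. Of 15 with a probe set 13 were above the floor, 12 had a difference above 0, and 0 reached 2-fold in either direction, with a median of 0.20. With no floor their median was 0.44, beside 0.28 for the postmitotic factors and 0.43 for the effectors. The 3 of highest signal, Nr2f2, Gli3 and Nr2f1, which many tissues make, differed by 0.03, -0.10 and 0.20. In the wild type 6 of the 13 lay under the floor: Pax6 read 5.73 in the double knockout and 5.29 in the wild type, and Neurog2 read 5.88 in the double knockout and 5.30 in the wild type.

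Among genes that carry out the functions of cortical neurons, 24 of 25 with a probe set were above the floor on each array, 18 were above 0, with 5 past 2-fold upward and 0 downward, and the median was 0.43. Mpped1, a phosphoesterase gene enriched in fetal brain, read 8.89 in the double knockout and 7.18 in the wild type, 3.26-fold higher. The axonal adhesion protein Cntn2 was 2.73-fold higher, the glutamate receptors Grm5 and Grin2b 2.58-fold and 2.21-fold, and Dab1, which relays the reelin signal, 2.50-fold. Slc17a7, the vesicular glutamate transporter typical of cortex, differed by 0.58. Slc17a6, a gene of the same list that thalamus, brainstem and sensory ganglia also make, differed by -0.33. Of the members of highest signal besides Mpped1, the semaphorin receptor Nrp1 differed by 0.23, Crym by 0.54 and the kinase subunit Camk2b by -0.03. Camk2a, Nrn1 and Cdh13 had log2 differences of -0.48, -0.44 and -0.67. The members and these 3 cortical lists together made up 14 of the 60 genes that were at least 2-fold higher, with 5 and 9 genes. The members are 8 and the lists 60 of the 12458 genes that exceeded the floor in 1 or both genotypes. The members were picked on this difference and the lists written with earlier results known, so nothing is read from that total.

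**Figure D4:**
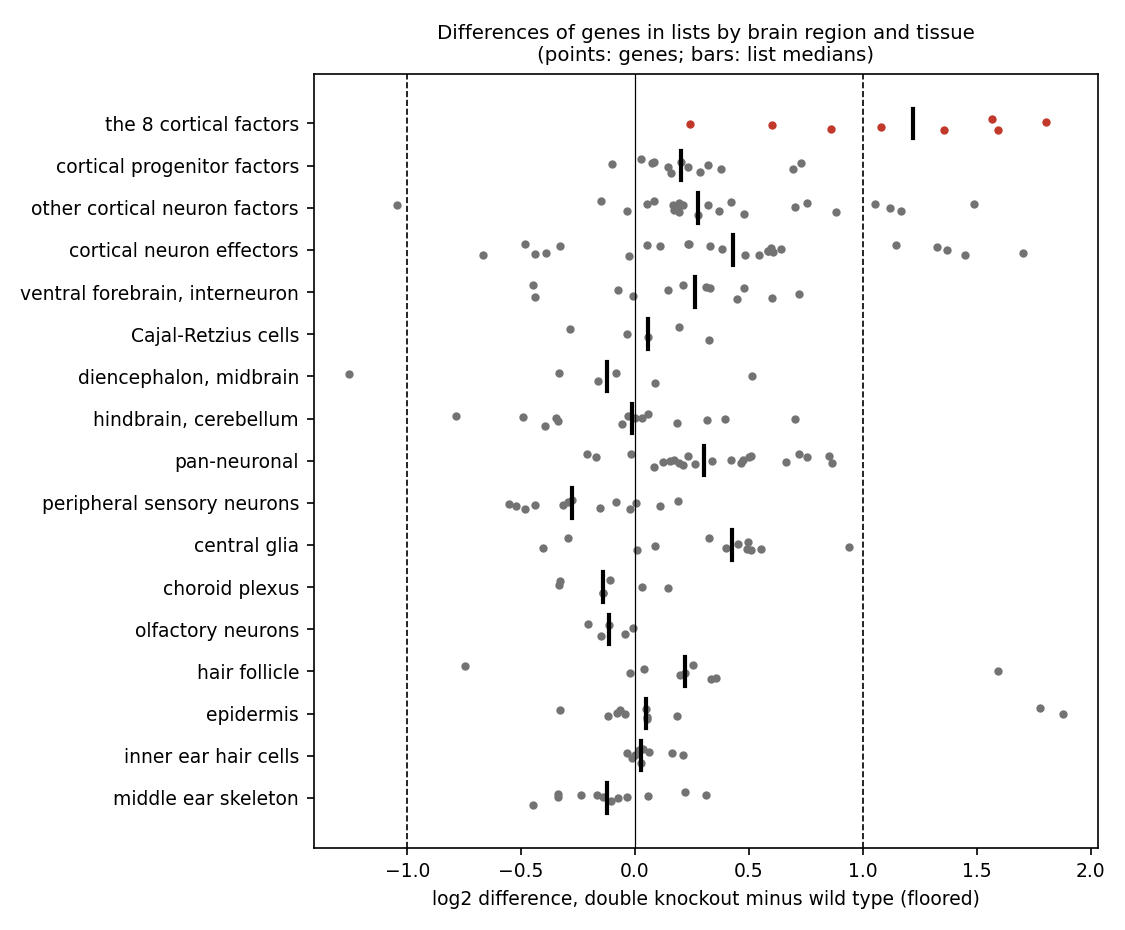
Log2 difference (double knockout minus wild type, low values raised to the floor) of each gene that exceeded the floor in 1 or both genotypes, by list, with list medians as black bars and dashed lines at 2-fold. The 8 cortical factors, in red, have a median of 1.22; medians of the other forebrain, pan-neuronal and central glia lists lie between 0.06 and 0.43, those of diencephalon and midbrain, hindbrain and cerebellum, and peripheral sensory neurons between -0.28 and -0.02, and the hair follicle point beyond 2-fold is Lhx2 itself.

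Lists for other brain regions had medians between -0.12 and 0.26, and differences between lists were not tested. Ventral forebrain and interneuron genes had a median of 0.26 over 12 genes above the floor of 20 with a probe set, with 8 above 0 and 0 past 2-fold. Sst and Npy, interneuron peptides that peripheral cells also make, differed by 0.72 and 0.60, and the interneuron factor Lhx6 by 0.48. Ebf1, Meis2 and Dlx5, the members of highest signal and all made outside the brain too, differed by -0.01, 0.31 and -0.08. Cajal-Retzius genes had a median of 0.06 over 5 of 7. Reln, which encodes reelin, read 7.84 in the double knockout and 7.52 in the wild type, and Cxcr4 and Ebf2 differed by 0.19 and -0.29. Diencephalon and midbrain genes had a median of -0.12 over 6 of 15, with 2 above 0. The exception in size was Th, the enzyme of catecholamine synthesis, at 6.91 in the double knockout and 8.16 in the wild type, 2.39-fold lower, a gene that sympathetic neurons make as well. Tcf7l2 and Irx3 differed by -0.16 and 0.09. Hindbrain and cerebellar genes had a median of -0.02 over 14 of 19, with 6 above 0 and 7 below. In that list the cerebellar synaptic protein Cbln1 was at least 1.63-fold higher, and the hindbrain gene Hoxb2 differed by -0.49. Zic2, Zic1 and Mab21l1, those of highest signal, differed by 0.39, -0.06 and -0.40.

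Most genes of the pan-neuronal and central glia lists had differences above 0, none of them past 2-fold. All 22 pan-neuronal genes with a probe set were above the floor on each array. Of these 19 were above 0 and 0 reached 2-fold, with a median of 0.30 and a summed linear signal of 14438 in the double knockout and 11490 in the wild type. Dcx, a microtubule protein of young neurons, differed by 0.86, Crmp1 by 0.85 and Map2 by 0.76, and the most abundant, Stmn2, Dpysl3 and Nefl, by 0.21, 0.23 and -0.17. Central glia genes had a median of 0.42 over 12 of 14, with 10 above 0, 0 past 2-fold and a summed signal of 7480 in the double knockout and 5777 in the wild type. The brain proteoglycan Bcan differed by 0.94 and Fabp7, of radial glia and also of Schwann cell precursors, by 0.51, Gpm6b and Pdgfra, which other tissues make, by 0.32 and 0.01, while the astrocyte marker Gfap and the progenitor factor Nkx2-2 were under the floor on each array. Peripheral sensory neuron genes had the opposite sign, with a median of -0.28 over 13 of 15 genes, 10 of them below 0, and a summed signal of 2099 in the double knockout and 2449 in the wild type. In that list Prph, an intermediate filament of peripheral neurons, differed by -0.52, the sodium channel Scn10a by -0.55, and Runx1 and Gata3 by -0.15 and -0.02. The part of these cell types in the members' differences was not tested.

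Lists for other tissues, among them sites where some members are made, were also examined. The members were picked on this same contrast, so nothing is read from their median being higher than those of these lists. The hair follicle list, without Lhx2, had a median of 0.21 over 8 genes, with 6 above 0 and 0 past 2-fold. Sox9 differed by 0.33, Lef1 by 0.25 and Vdr by 0.04, the follicle keratin Krt17 by -0.75, and Shh, Edar and Foxn1 were under the floor on each array. Epidermal genes had a median of 0.05 over 11 of 13, but the keratins of differentiating epidermis, Krt1 and Krt10, were at least 3.67-fold and 3.43-fold higher. Krt5, Perp and Itga6 differed by 0.05, 0.05 and -0.05, and the summed signal of the list was 2907 in the double knockout and 2637 in the wild type. Of 10 T cell genes with a probe set, 2 were above the floor: Thy1, which neurons also make, at 0.01, and Cd3e, at 6.07 in the double knockout and 5.07 in the wild type. Olfactory neuron genes, a further site of Lhx2 and Emx2, had a median of -0.11 over 5 of 10, with Ebf3 at -0.04 and Ric8b at -0.11, and the defining markers Omp and Cnga2 were under the floor on each array. Choroid plexus genes had a median of -0.14 over 7 of 8, with Ttr, the transthyretin gene, at 10.99 in the double knockout and 11.13 in the wild type, Kcnj13 at -0.11 and Aqp1 at 0.03. Genes that pattern the middle ear skeleton had a median of -0.12 over 12 of 13, with Prrx1 at -0.17 and Pou3f4 at 0.31. The 8 largest differences over all genes, named after their values were seen, were those of Bpifa2, Smgc, Prol1, A2ml1, Pip, Lpo, Car6 and Muc19, most of them genes of salivary and related gland secretions. All 8 were under the floor in the wild type, with bounds from at least 6.13-fold to at least 113-fold higher in the double knockout. The part of these tissues in the members' differences was not tested.

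The genes whose pair of signals lay nearest to the mean of the 5 members past 2-fold (7.69 in the double knockout and 6.21 in the wild type) were, by Euclidean distance over the 2 arrays, Wfdc18, Nr4a3, Olfr767, Lrrc26, Grin2b and Pnpla3. Their distances ran from 0.048 to 0.315 log2 units. Wfdc18, the nearest, read 7.65 in the double knockout and 6.19 in the wild type. With 2 arrays such likeness says only that the levels are close.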

How the data were processed

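Total RNA of fetal ear was hybridised to 2 Affymetrix arrays, 1 per genotype. The deposited table holds log2 values for 35557 probe sets. The base was read from their range (0.75 to 13.27). MAS5 is the tool named in the submitters' processing notes, without a version. How background was corrected, whether arrays were normalized to each other and which genome build was used stay not given in the sources used here. Precision is limited by the number of arrays. The platform's annotation paired 21789 probe sets with 1 gene, 1621 with several and listed no gene for 12147. Current symbols came from RefSeq through Entrez identifiers (21698 matched, 0 symbols changed). A gene with several probe sets was represented by its brightest (mean linear signal), a floor was set at the 50th percentile of each array, and genes were counted at 2-fold or more (Python 3.11.15, pandas 2.3.3, numpy 2.4.6). The calculation was tested on simulated data.

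The 8 members, the 19 other lists, the naming rule and the alternatives were chosen with earlier results of these data known. The rule selected all members, their listed relatives, and from each list the 3 genes of highest signal and up to 8 past 2-fold. Further genes were named once their values had been seen. Alternatives comprised 4 scalings (lowess from statsmodels 0.14.6), 3 floor settings, a pseudocount, 2 summaries of probe sets and 2 other fold thresholds. Leaving out a replicate was not possible with 1 array per genotype.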

Additional observations from a re-analysis of the deposited data

How the results depend on the processing

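The count of members at least 2-fold higher was 5, and it was the same under the 4 other scalings (equal medians, quantile normalization, lowess, equal trimmed means), the floor at the 25th percentile, no floor, and the median or mean over probe sets. Each member has 1 probe set, so the median and mean over probe sets could not change its value. The count was 0, of 3 members entering, under a 75th-percentile floor, 3 when the median signal of the array was added as a pseudocount, 7 at 1.5-fold and 2 at 3-fold. The members' median difference, 1.22, ran from 1.19 to 1.30 under those 8 settings that kept the count, and came to 0.82 under the 75th-percentile floor and 0.90 under the pseudocount. A higher floor or a pseudocount shrinks differences of low signals by construction. Over all genes, 60 were at least 2-fold higher and 213 lower; higher and lower counts were 21 and 111 under the 75th-percentile floor, 280 and 451 at 1.5-fold, and 16 and 120 at 3-fold, and 34 were higher under the pseudocount. A difference counted as moved when it shifted by more than 0.168, the SD between probe sets of a gene, and a count when it changed by more than 1.5 times. No member changed sign under any setting in which it entered. That says little, since the members were picked on these differences and no setting was likely to reverse one. The list of ventral forebrain genes had a median of 0.00 under the 75th-percentile floor, and that of diencephalon and midbrain genes 0.07 under the 25th-percentile floor. The medians of the 3 cortical lists, pan-neuronal genes and central glia genes stayed above 0 under all 10 settings. The order of the 3 cortical medians changed: progenitor factors had the lowest under the reported floor and the highest with no floor. No paired analysis was possible because there is 1 array per genotype.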

Other observations

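Of the 60 genes at least 2-fold higher in the double knockout ear, 44 were in none of the lists above. They include the 8 largest differences, mostly of salivary and related gland genes, described above. Others are known from nervous tissue and are named here for that reason, after their values were seen, without a claim that they are all such genes. Igfbpl1, a binding protein-like gene of young forebrain neurons, read 7.24 in the double knockout and 5.76 in the wild type, 2.78-fold higher. Sez6, a membrane protein of cortical dendrites, was 2.49-fold higher, with 7.91 in the double knockout and 6.60 in the wild type. Cnih3, an auxiliary subunit of AMPA receptors, was 2.38-fold higher, and Gabra5, a GABA-A receptor subunit, 2.31-fold. Islr2, Cck, Prdm8, Ncan, Gpm6a, Ntsr1 and Chl1 had log2 differences from 1.02 to 1.19. Ntsr1 lay under the floor in the wild type, so its difference is a lower bound.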
